A study of Mus musculus with 52 samples.

Results

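Levels of 10 endoplasmic reticulum (ER) stress genes were followed in mice that lack the Tug1 long noncoding RNA locus. The genes were Herpud1, Hspa5, Pdia4, Hsp90b1, Sdf2l1, Creld2, Manf, Ddit3, Atf4 and Xbp1. They were chosen by name from this pathway after fold changes in these data had been seen, so their differences between genotypes are a description and carry no test. All 10 were listed in each of 8 tissues, out of 20198 genes listed in liver to 34865 in testes. Every value is the authors' mean over the samples of a group, in TPM, which expresses a transcript's share of the library after division by its length. Values of single samples were not analysed here and the errors and p-values that the authors deposited for their own comparisons were not used, so means are given without an error and ratios without a replicate check, and 1 deviating library could set a mean.

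Proteins that are secreted or sit in membranes fold in the ER. When unfolded proteins build up there, the sensors IRE1, PERK and ATF6 start the unfolded protein response, which raises the output of chaperones, folding enzymes and the machinery that removes misfolded proteins, and slows the making of new protein. Hspa5 encodes BiP and Hsp90b1 encodes GRP94, the main chaperones inside the ER, and Sdf2l1 encodes a partner of BiP's co-chaperones. Pdia4 encodes a disulfide isomerase, Creld2 a stress-induced ER protein linked to disulfide exchange, and Manf a secreted protein that protects cells from ER stress. Herpud1 encodes a membrane protein of ER-associated degradation. Atf4, Xbp1 and Ddit3 encode the transcription factors ATF4, XBP1 and CHOP, of which ATF4 and XBP1 are set largely after transcription, by translation and by splicing, so that their RNA levels do not show their activity. Secretory tissues depend most on this pathway.

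The knockout allele replaces the gene body of Tug1 with lacZ and keeps the promoter and the first exon. The labels list male wild-type and Tug1-/- mice on a C57BL/6J/129S6 background without Neo for heart, liver, spleen and eyes (3 samples per genotype), for prostate (3 wild type and 2 Tug1-/-) and for mouse embryonic fibroblasts (MEFs, 3 per genotype), primary cells grown from embryos of the same litters. Testes came from 4 wild-type mice without Neo, from 4 Tug1-/- mice that carried Neo and LacZ, and from 3 rescue mice, which were Tug1-/- with Neo and LacZ and carried the transgenes tg(Tug1) and CAGs-rtTA3 and received doxycycline, so in testes the cassette and the loss of Tug1 cannot be told apart. The transgene encodes a Tug1 isoform without part of the 5′ end, under a doxycycline-dependent promoter, with rtTA3 driven from a ubiquitous promoter. Brain means come from libraries outside this series, and their number was not used here. Ages of the mice behind the tissues are not given in the sources used here, nor is whether tissues were shared between mice. Tug1 had a mean of 10.1 to 57.5 TPM in the wild-type tissues and of 0.00832 to 0.885 TPM in Tug1-/- tissues, and rescue testes held 1.60 TPM, 4.003% of the wild-type mean. Identity markers of the labelled tissue were detected in both genotypes in all 8 tissues, for example summing to 124106 and 131031 TPM in liver. The mean normalized count behind a member, given for the tissues other than testes, ranged from 165 for Sdf2l1 in brain to 88206 for Hspa5 in prostate. The spread between mice was not estimated here.

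The promoters were searched for elements of the ER stress response. Since the genes were chosen by name from this pathway, matches to its elements are not independent of that choice. The shares of all promoters are given as a description only. Of the members, 9 had an entry among 32851 RefSeq mouse promoters (GRCm38.p6, 250 bases before to 50 after the start, 300 in all), and Manf had none. The ER stress response element, bound by ATF6 with the factor NF-Y, was searched on both strands as CCAAT and CCACG separated by 9 bases. It was present in 3 of these 9 members, Hspa5, Hsp90b1 and Creld2, and in 39 of all 32851 promoters, or 0.119%. The second form of the element, searched after the data were seen as ATTGG, 1 base and CCACG, was present in Herpud1 and in 12 promoters, or 0.0365%. The ATF4 site, searched as TGATG, 1 base and AA, was present in Herpud1 alone of the 9 and in 1304 promoters, or 3.97%. The site of XBP1 and ATF6, searched as TGACGTGG, was in none of the 9 and in 222 promoters, or 0.676%. The windows below are shown because they hold the elements of the chaperone genes and of Herpud1. Each is written 5′ to 3′ on the strand on which the element reads as given, with the element in capitals.
Hspa5: cttcaCCAATCGGAGGCCTCCACGacgggg
Hsp90b1, farther element: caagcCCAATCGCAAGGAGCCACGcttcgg
Hsp90b1, nearer element: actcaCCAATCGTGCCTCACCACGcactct
Creld2: gtggaCCAATTGAGGCTCGCCACGagaagc
Herpud1, second form: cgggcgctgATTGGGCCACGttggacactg
Herpud1, ATF4 site: ggggtgcgggcTGATGCAAcccgccgtggt
The Hspa5 window lies at chr2:34772020-34772049 on the + strand, with its element 65 to 47 bases before the RefSeq start, and inside the gene as the deposited table draws it, which begins 120 bases farther upstream. The Hsp90b1 windows lie at chr10:86705632-86705661 on the - strand and chr10:86705528-86705557 on the + strand, upstream of the gene. The Creld2 window is at chr15:88819514-88819543 on the - strand. The Herpud1 windows are at chr8:94386368-94386397 on the + strand and chr8:94386306-94386335 on the - strand, and the antisense gene Gm15890 runs across this start site. A match is a description of letters and not evidence of binding.

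Herpud1 and Creld2 had the largest ratios of the members in single tissues (below), and their 250 bases before the RefSeq start are shown in full, from chr8:94386179-94386428 and chr15:88819396-88819645, both on the + strand. Capitals mark the matches above as they read on this strand.
Herpud1: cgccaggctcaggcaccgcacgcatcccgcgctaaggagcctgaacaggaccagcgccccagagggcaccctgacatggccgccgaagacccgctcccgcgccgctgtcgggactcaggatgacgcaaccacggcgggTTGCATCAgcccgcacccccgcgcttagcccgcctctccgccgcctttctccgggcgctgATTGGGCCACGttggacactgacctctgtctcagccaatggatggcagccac
Creld2: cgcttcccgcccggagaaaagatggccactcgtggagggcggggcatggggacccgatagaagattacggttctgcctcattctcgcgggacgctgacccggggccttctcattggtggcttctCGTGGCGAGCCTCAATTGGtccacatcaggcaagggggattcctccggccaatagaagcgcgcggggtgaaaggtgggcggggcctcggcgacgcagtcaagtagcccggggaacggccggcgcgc

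In wild-type mice the prostate, a secretory gland, had the highest mean of 9 of the 10 genes, and heart had the lowest mean of 6. Together the 10 genes held 0.624% of wild-type prostate TPM and 0.0730% in heart. Sdf2l1 spanned the widest range, from 8.05 TPM in heart to 610 TPM in prostate, a ratio of 75.7, and prostate stood 6.83 times above spleen, its next tissue. Creld2 went from 17.1 TPM in heart to 819 TPM in prostate and was next highest in testes at 418 TPM. Manf went from 16.2 TPM in heart to 402 TPM in prostate, and Pdia4 from 32.8 to 577 TPM. The large chaperones varied less, Hspa5 from 224 TPM in heart to 1372 TPM in prostate and Hsp90b1 from 147 to 1123 TPM. Herpud1 differed 4.62-fold between its extremes, MEFs at 101 TPM and prostate at 466 TPM. The transcription factor genes had other orders. Ddit3 was highest in MEFs at 108 TPM and lowest in liver at 7.02 TPM, while Atf4 and Xbp1 were lowest in testes at 61.0 and 15.3 TPM and highest in prostate at 624 and 203 TPM. Neighbours in these orders were often close, such as prostate and MEFs for Hsp90b1 (1.03-fold) or prostate and liver for Herpud1 (1.07-fold), and with no spread between samples they cannot be ranked. The testes values come from a table of their own, normalized apart from the other tissues.

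**Figure D1:**
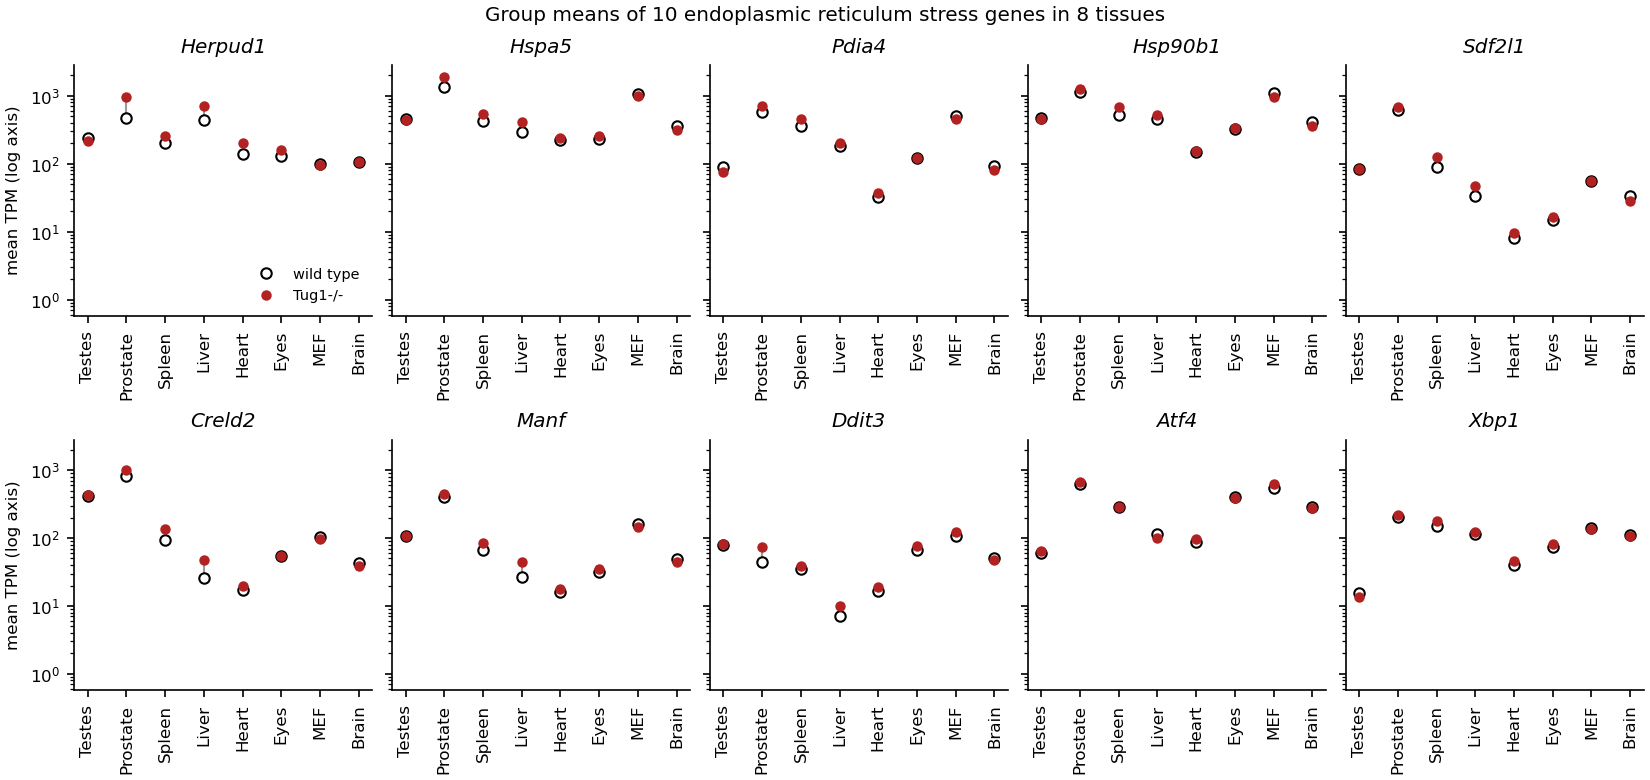
Each panel plots 1 gene, with the authors' mean TPM on a log axis for wild type (open circles) and Tug1-/- (filled circles) in 8 tissues, joined by a line and drawn without error bars. Prostate is highest in 9 panels, and the widest gap between genotypes is that of Herpud1 in prostate, 466 against 955 TPM.

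Between genotypes, most of these genes in liver, some in prostate and spleen, and Herpud1 alone in heart had higher means in Tug1-/- mice past the limit set here, and none had a lower mean past it in any tissue. A gene was counted as past the limit when the means differed by at least 1.3-fold after 0.1 TPM was added to each, among genes with at least 1 TPM in either group. All 10 members passed that filter in both groups of every tissue, the lowest mean being 7.02 TPM. Of 80 pairs of a member and a tissue, 53 had a higher and 27 a lower Tug1-/- mean, and 12 were past the limit, all higher. In liver 6 of 10 members were higher past the limit, against 7.76% of all genes, and 0 were lower, against 5.81%. In prostate 3 of 10 were higher, against 10.1% of all genes, and 0 lower, against 5.21%. In spleen 2 were higher, against 8.20%, and 0 lower, against 13.1%. In heart 1 was higher, against 5.38%, and 0 lower, against 4.21%. No member was past the limit in eyes, MEFs, brain or testes, where the shares of all genes were 5.66% higher and 11.2% lower, 8.44% and 7.99%, 4.02% and 6.68%, and 6.07% and 5.67%. Since the same contrasts were known when the members were chosen, nothing is read from these counts about chance. The median log2 ratio of the members was 0.47 in liver, 0.35 in spleen, 0.23 in prostate, 0.19 in heart and 0.16 in eyes, and -0.02 in testes, -0.07 in MEFs and -0.14 in brain. The median of all genes was 0.01 in liver, -0.11 in spleen, 0.04 in prostate, 0.10 in heart, -0.11 in eyes, 0.03 in testes, 0.05 in MEFs and -0.03 in brain. Relative to the median of all genes, the members' median was 0.46 in spleen, 0.08 in heart and 0.26 in eyes. In spleen 7 rather than 2 members were then higher past the limit, against 10.67% of all genes. In heart the log2 ratios of Hspa5 and Hsp90b1 turned from 0.10 and 0.07 to -0.0065 and -0.03. With a limit of 1.2-fold, Sdf2l1 in brain was past it and lower, as were 9.905% of all genes there. With a limit of 1.5-fold, 3 members in liver and 2 in prostate were past it, against 3.374% and 5.319% of all genes higher. No member in spleen or heart was past that limit.

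**Figure D2:**
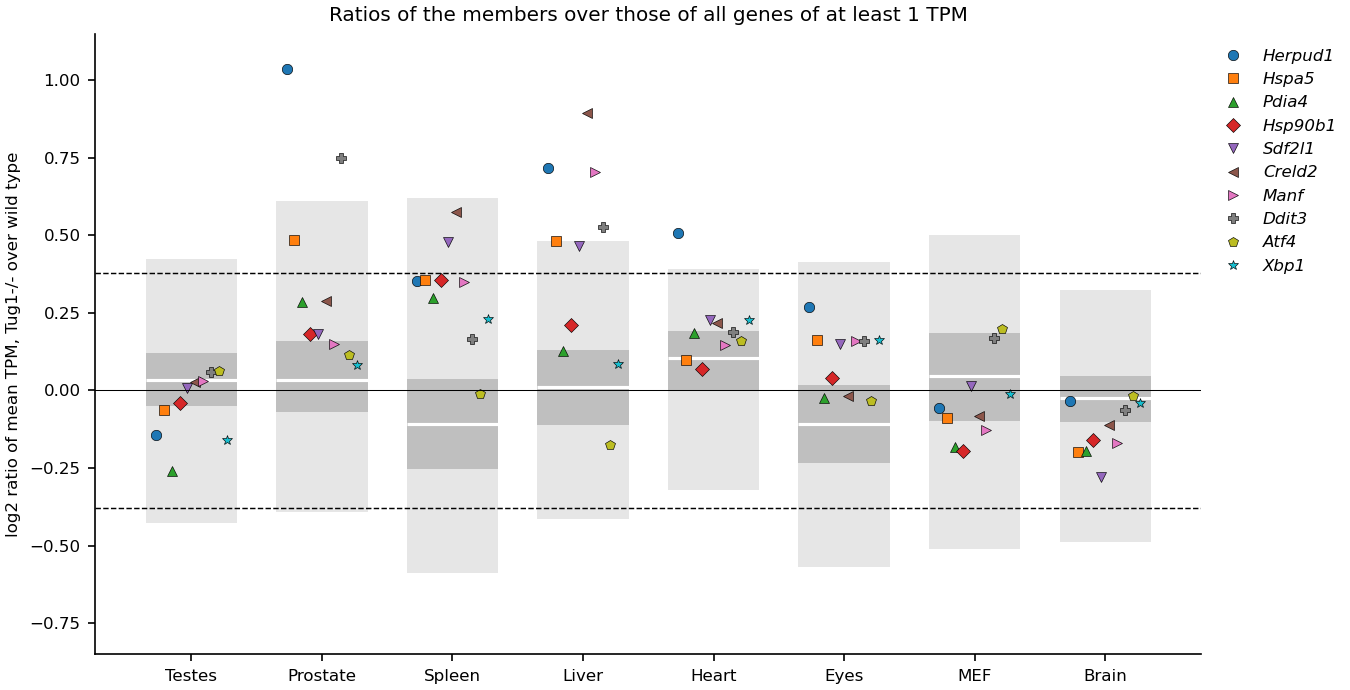
The vertical axis is the log2 ratio of mean TPM, Tug1-/- over wild type, and each symbol is 1 member. Grey bars span the 5th to 95th (light) and 25th to 75th (dark) percentile of all genes of at least 1 TPM, the white line is their median and the dashed lines mark the 1.3-fold limit. Symbols lie above the upper limit in prostate (3), spleen (2), liver (6) and heart (1).

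Among the chaperones, Hspa5 had a liver mean of 292 TPM in wild type against 408 TPM in Tug1-/- mice, a ratio of 1.40, and prostate means of 1372 and 1921 TPM, also a ratio of 1.40. In spleen its means were 426 and 545 TPM, just inside the limit at 1.28. The remaining tissues were closer to equal, from 364 against 317 TPM in brain to 229 against 256 TPM in eyes. Hsp90b1 stayed inside the limit everywhere. Its largest ratio was in spleen, 529 against 678 TPM or 1.28-fold, its liver means were 458 and 531 TPM, and its lowest ratio was in MEFs, 1092 against 954 TPM. Hspa5 thus had the larger ratio of this pair of chaperones in liver and prostate, while in spleen both stood at 1.28. Sdf2l1 was past the limit in liver, with 34.1 and 47.1 TPM (1.38-fold), and in spleen, with 89.3 and 124 TPM (1.39-fold). Its prostate means, the highest of any tissue, were 610 and 692 TPM. In brain Sdf2l1 had the lowest ratio of any member in any tissue, 34.0 against 28.0 TPM, a log2 ratio of -0.28, on a mean normalized count of only 165.

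Of the folding enzymes and secreted factors, Creld2 had the largest ratio in liver and in spleen. Its liver means were 25.8 TPM in wild type against 48.0 TPM in Tug1-/-, 1.86-fold, and its spleen means were 92.6 and 138 TPM, 1.49-fold. In prostate its means were 819 and 1000 TPM, inside the limit at 1.22-fold. Manf was past the limit in liver alone, with 26.8 and 43.7 TPM (1.63-fold). In spleen it was inside, with 66.8 and 85.2 TPM (1.27-fold). Pdia4 was past the limit in no tissue. Its highest ratio was in spleen, 366 against 450 TPM (1.23-fold), its prostate means were 577 and 703 TPM, and its lowest ratio was in testes, 90.6 against 75.7 TPM. In liver, where Creld2 and Manf differed most, the Pdia4 means were 184 and 201 TPM.

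Herpud1, the degradation component, had the most tissues past the limit, 3 of 8. Prostate means were 466 TPM in wild type against 955 TPM in Tug1-/-, 2.05-fold, the largest ratio of any member in any tissue. Liver means were 437 and 718 TPM, 1.65-fold, and heart means were 141 and 201 TPM, 1.42-fold. In heart it was the only member past the limit, and Hspa5 stood at 224 and 240 TPM there. Spleen (203 and 260 TPM) and eyes (132 and 159 TPM) had ratios of 1.28 and 1.21, inside the limit. Means in MEFs (101 and 96.9 TPM) and brain (107 and 105 TPM) were near equal, and testes had 242 and 219 TPM.

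The transcription factor genes did not share a pattern. Ddit3, which encodes CHOP, was past the limit in prostate, with 44.2 and 74.3 TPM (1.68-fold), and in liver, with 7.02 and 10.1 TPM (1.44-fold, on a mean normalized count of 262). Its spleen means were 34.7 and 39.0 TPM. Atf4 was past the limit nowhere: its liver means were 113 and 100 TPM, with the wild-type mean the higher one, and its highest ratio was in MEFs, 546 against 626 TPM. Xbp1 was also past the limit nowhere, with liver means of 114 and 121 TPM and prostate means of 203 and 215 TPM. Counts were taken per gene, so the spliced form of Xbp1 that makes the active factor was not separated here. Just inside the limit lay Hsp90b1, Hspa5, Herpud1 and Manf in spleen, with ratios of 1.27 to 1.28, and just outside it lay Sdf2l1 in liver at 1.38, and Sdf2l1 in spleen at 1.39.

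Markers of other cell types and organs also differed between the genotypes, and their part in the results was not tested. Pancreas and seminal vesicle are organs other than those labelled, and whether samples held tissue of other organs was not tested. In bulk tissue, fewer cells of a type and less RNA per cell cannot be told apart. In spleen, pancreatic acinar markers summed to 76.1 TPM in wild type against 10318 TPM in Tug1-/-, all 10 of 10 higher and none at 0, with Ctrb1, a digestive protease, at 3.14 and 2154 TPM. Liver identity markers in spleen went the other way, summing to 22.8 TPM in wild type against 0.654 TPM in Tug1-/-, with 4 of 4 lower. The plasma cell markers, of cells that secrete antibody, summed to 27744 and 35156 TPM in spleen, with 4 of 6 higher. In prostate, seminal vesicle markers summed to 19935 TPM in wild type against 59341 TPM in Tug1-/-, with none at 0. Of these 5 markers, 3 were higher and 2, Svs6 and Svs3a, lower past the limit. Prostate plasma cell markers summed to 43.0 and 228 TPM, with all 5 that passed the filter higher, and macrophage markers to 277 and 433 TPM, 8 of 8 higher. In liver, macrophage markers summed to 305 and 461 TPM, 8 of 8 higher. Of the 10 acinar markers, 7 were listed in liver and 5 of those were at 0 in Tug1-/-. In heart, plasma cell markers summed to 110 TPM in wild type against 46.7 TPM in Tug1-/-, lower for all 5 that passed the filter, while all 8 macrophage markers were higher, at 675 and 843 TPM. All 8 macrophage markers were also higher in eyes, at 898 and 1156 TPM, and in testes, at 120 and 159 TPM, where no member was past the limit. In spleen all 8 were lower, at 7474 and 7009 TPM. Their median log2 ratio there was -0.06, and 0.05 relative to the median of all genes.

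In testes no member was past the limit between Tug1-/- and wild type, and ratios ran from 0.836 for Pdia4 to 1.05 for Atf4. Rescue mice are listed with the Tug1 transgene, rtTA3 and doxycycline together, so their comparison with Tug1-/- mice cannot single out Tug1 RNA. Tug1 had 1.60 TPM in rescue against 40.1 TPM in wild-type testes. Against Tug1-/-, 0 of 10 members were past the limit in rescue testes in either direction, where 3.21% of all genes were higher and 6.06% lower. Against wild type, 0 were higher, with 6.29% of all genes higher, and 1 was lower, with 8.23% of all genes lower. That gene was Xbp1, with 15.3 TPM in wild-type, 13.7 TPM in Tug1-/- and 11.6 TPM in rescue testes, a ratio of 1.31 between the extremes that fell inside the limit when 1 TPM was added instead of 0.1. Herpud1 had 242, 219 and 213 TPM in these groups, Pdia4 had 90.6, 75.7 and 74.2 TPM, and Hspa5 had 458, 438 and 446 TPM. Creld2, whose testes level was second to prostate, had 418, 426 and 431 TPM. These comparisons share groups, so their ratios are not independent. Markers of Leydig cells, which make testosterone, summed to 483 TPM in wild type, 742 TPM in Tug1-/- and 639 TPM in rescue testes, and those of Sertoli cells, which nurse germ cells, to 162, 226 and 255 TPM.

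**Figure D3:**
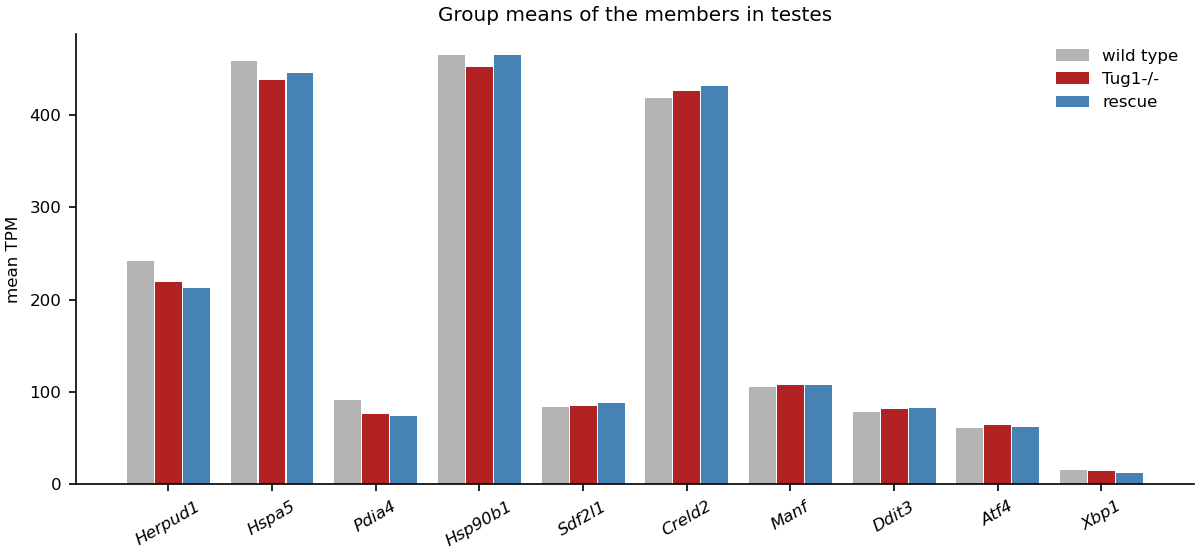
Bars are the authors' mean TPM of each member in wild-type testes and in those of Tug1-/- and rescue mice, from 0, drawn without error bars. Between rescue and wild type, Xbp1 (11.6 against 15.3 TPM) is the 1 member past the 1.3-fold limit, and Hspa5 stands at 458, 438 and 446 TPM.

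Most genes in 3 other lists of this pathway were past the limit in no tissue. Among all genes, 4.02% (brain) to 10.1% (prostate) were higher past it, and 4.21% (heart) to 13.1% (spleen) lower. None of the 6 genes for the sensors IRE1, PERK and ATF6, for ATF6B and for the proteases that cut ATF6 was past the limit in any of the 8 tissues, although 2 of them, Ern1 and Eif2ak3, had lower means in rescue than in wild-type testes. Of 17 other ER chaperones and folding enzymes, 13 were past the limit in no tissue. Over the 8 tissues this list had 4 values higher and 1 lower past it among 136. Counted by direction alone, 15 of the 17 had a higher Tug1-/- mean in heart, 13 in liver, 11 in spleen, 10 in prostate, 8 in eyes, 6 in testes, 6 in brain and 2 in MEFs. These counts were not centred and depend on the shift of all genes in each tissue. In heart the list's median was 0.12, and 0.02 relative to the median of all genes. In eyes the list's median was -0.01, and 0.09 relative to that of all genes, and in spleen 0.10 and 0.21. The 1 lower value past the limit was that of Dnajc10, an ER reductase, in testes, with 101.3 TPM in wild-type, 71.8 TPM in Tug1-/- and 67.5 TPM in rescue mice. Dnajb9, a BiP co-chaperone, was higher in liver (51.7 and 73.8 TPM) and in prostate (208 and 297 TPM), both 1.43-fold. Hyou1, an ER chaperone, was higher in liver (29.96 and 41.5 TPM). Of 15 genes of ER-associated degradation, 12 were past the limit nowhere. Derl3 was higher in liver (1.86 and 2.69 TPM, near the filter of 1 TPM) and spleen (23.8 and 36.1 TPM) and lower in brain. In prostate it was inside the limit, with 339 and 360 TPM. Syvn1, a ubiquitin ligase of this system, was higher in prostate (97.3 and 158 TPM). Before centring, the medians of these 3 lists ranged from -0.17 to 0.17 over the tissues. The genes of these lists named here were picked after their values were seen.

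Of 8 targets of ATF4 and CHOP, Chac1, which breaks down glutathione, was higher past the limit in 4 tissues. Its means were 24.7 and 65.6 TPM in prostate (2.65-fold), 1.97 and 5.49 TPM in liver (2.70-fold), 4.05 and 5.85 TPM in heart (1.43-fold) and 1.17 and 1.77 TPM in spleen (1.46-fold). Cebpb, which encodes a transcription factor, was higher in liver (29.6 and 47.0 TPM), heart (9.63 and 16.1 TPM) and MEFs (16.1 and 25.3 TPM) and lower in testes (1.55 and 1.05 TPM). Trib3, picked after its values were seen, went both ways, with 8.40 and 17.5 TPM in prostate and 17.2 and 9.47 TPM in liver. Over the 8 tissues the list had 12 values higher and 4 lower past the limit among 61. Of all genes, 4.02% to 10.1% were higher past it in a tissue and 4.21% to 13.1% lower.

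The cytosolic heat shock genes code for chaperones outside the ER under another transcription factor, HSF1. Their median log2 ratio was 0.62 in liver, 0.60 in spleen, 0.56 in prostate and 0.46 in heart, and between 0.02 and 0.09 in the other tissues. It was above the members' median in every tissue except eyes, where it was 0.09 against 0.16. The ranges overlapped, from 0.29 to 1.74 against -0.17 to 0.89 for the members in liver, and the difference was not tested. In prostate 9 of 12 were higher past the limit and in heart 9, against 10.1% and 5.38% of all genes. In liver 8 were higher past it and in spleen 8, against 7.76% and 8.20%. Relative to the median of all genes the counts were 5 in heart and 10 in spleen, against 3.256% and 10.67% of all genes. They were 9 in prostate and 8 in liver, against 8.831% and 7.458%. Hsph1, a nucleotide exchange factor of HSP70, had 10.3 and 26.0 TPM in liver (2.51-fold), 42.2 and 106.6 TPM in spleen (2.52-fold), 25.7 and 55.1 TPM in prostate (2.14-fold) and 12.4 and 26.0 TPM in heart (2.09-fold). Hspa1b, an inducible HSP70, had 4.38 and 13.4 TPM in liver and 25.6 and 74.4 TPM in prostate. Hspa1a was higher past the limit in 5 tissues and lower in 1, with 7.17 and 25.2 TPM in prostate and 3.80 and 2.82 TPM in MEFs, and since it is a near copy of Hspa1b, reads may be split between them. Hspa8, Hsp90aa1 and Chordc1 were higher past the limit in the same 4 tissues, and Hspb1 in prostate, heart and testes. Of these ratios, that of Hspa8, the constitutive HSP70, was 1.56 in liver, against 1.40 for the ER chaperone Hspa5.

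**Figure D4:**
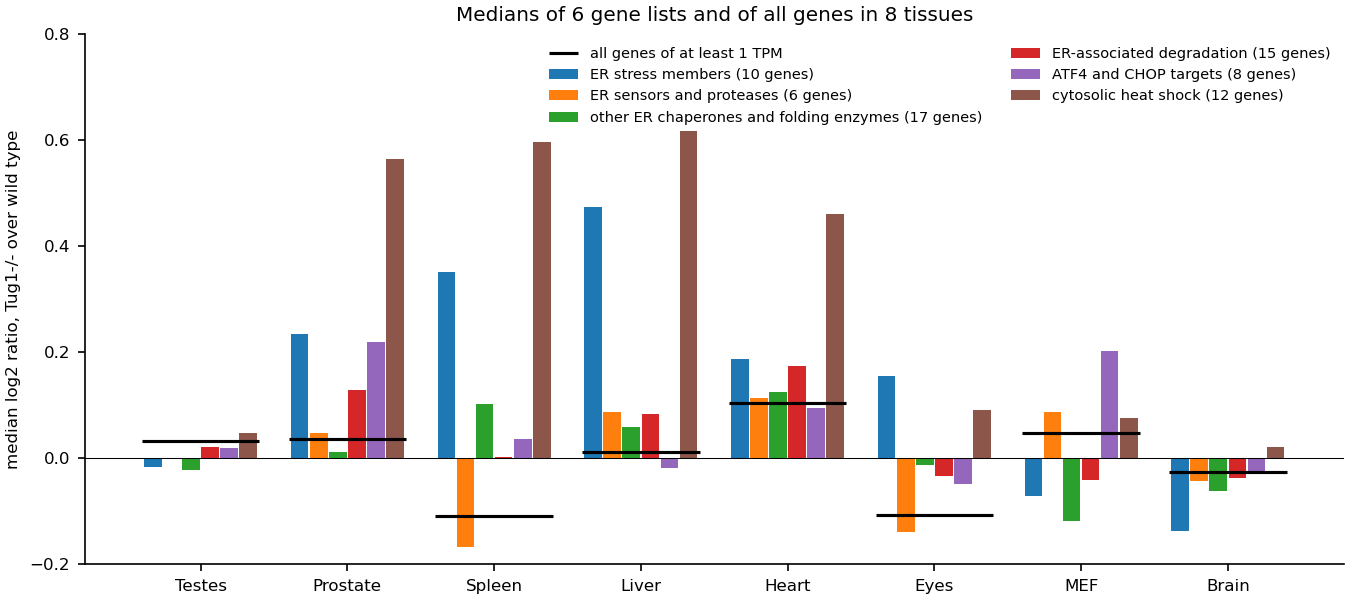
Bars are the median log2 ratio of mean TPM, Tug1-/- over wild type, of 6 gene lists in 8 tissues, and the black line is the median of all genes of at least 1 TPM. The members reach 0.47 in liver and the cytosolic heat shock list 0.62, while the lists of sensors, other ER chaperones and degradation lie between -0.17 and 0.17.

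Across the 8 tissues, the genes outside the members whose log2 ratios were most like the members' median, among 9343 genes with at least 1 TPM in both groups everywhere, were Dnajb11, an ER co-chaperone (Pearson r = 0.93), Dnajc3, an ER co-chaperone also named p58IPK (0.93), Hspa8 (0.93), the processed pseudogene Gm5905 (0.92) and Top1, topoisomerase I (0.92). Each r rests on 8 points that share libraries with the members. These genes were selected as the highest of 9343, so the size of r carries no test. Likeness of shape is not likeness of size: Dnajb11 ran from 0.895-fold in brain to 1.23-fold in liver and Dnajc3 from 0.913-fold in MEFs to 1.13-fold in liver, both inside the limit everywhere, whereas Gm5905 ran from 0.586-fold in brain to 2.38-fold in liver on 1.55 to 82.7 TPM in wild type. Reads of a pseudogene can be shared with the gene it copies. Among the members themselves, which make up the median, r was 0.95 for Manf and Sdf2l1 and 0.93 for Creld2 and Hspa5, but 0.65 for Ddit3 and -0.51 for Atf4.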

How the data were processed

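Polyadenylated RNA was sequenced from male mouse tissues and MEFs of 46 samples, in the groups given above, and brain libraries from outside the series were tabulated with them. Testes of F1 hybrid mice (6 samples) were not analysed here. According to the submitters' processing notes and the study's methods, the authors called bases with CASAVA 1.8.2, aligned reads to mm10 with STAR, counted unique reads per gene with featureCounts and tested genotypes with DESeq2. Whether counting used strand is not given in the sources used here. The deposited values used were group mean TPM, 3 columns in testes and 2 per tissue elsewhere, and the authors' mean normalized count per tissue over all its samples, used only to judge depth. The deposited tables also hold the authors' log2 fold changes with errors, statistics, p-values and significance flags, which were not used. Total counts per sample are not used here, so depth is unknown.

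Ratios were taken on log2(TPM + 0.1), which understates differences of low genes, for genes that reached a mean of 1 TPM in at least 1 of both groups, and a ratio of at least 1.3 was past the limit. The members and all gene lists were chosen with earlier results of these data known. Since the tables hold means, the planned tests needing samples were not run, and since the authors' errors and p-values were set aside, ratios are given with no replicate check. Named genes were the members, pathway or heat shock genes past the limit in the same direction in at least 3 of 8 tissues, and the 5 genes most like the members' median, and the other pathway genes named were picked after their values were seen. The code that computes the ratios was checked on simulated means, which says nothing about these genes. Alternatives were pseudocounts of 0.01 and 1 TPM, no filter and 10 TPM, limits of 1.2 and 1.5, and centring on the median of all genes. Spans of 5 of the 10 members overlap another listed gene: Hsp90b1, Manf, Herpud1, Ddit3 and Pdia4. The antisense gene Gm15890 at Herpud1 was listed at no more than 2.00 TPM. The software was Python 3.11.15, numpy 2.4.6, pandas 2.3.3 and matplotlib 3.10.9.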

Additional observations from a re-analysis of the deposited data

How the results depend on the processing

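No paired analysis was possible because the tables hold group means and no values per sample, and for the same reason no replicate could be left out in turn. Medians of the members were called moved when they shifted by at least 0.1 on the log2 scale, and counts when they differed by more than 1.5 times. Of 50 medians under other settings, 47 did not move. The 3 that did were centred on the median of all genes, which gave 0.263 in eyes, 0.0828 in heart and 0.461 in spleen. Of 70 counts, 59 did not move. With a limit of 1.2 the counts past it were 1 in brain, 1 in eyes, 5 in prostate, 7 in spleen and 2 in rescue against wild-type testes, of which Sdf2l1 in brain and both in rescue testes, Xbp1 and Pdia4, were lower and the others higher. Of all genes, 9.905% were then lower in brain and 11.73% in rescue against wild-type testes. The shares higher were 8.164% in eyes, 15.35% in prostate and 10.87% in spleen. With a limit of 1.5 the member counts were 0 in heart, 3 in liver, 0 in spleen and 0 in rescue against wild-type testes. The shares of all genes higher were then 2.078% in heart, 3.374% in liver and 5.4% in spleen. Centring gave 7 in spleen, against 10.67% of all genes higher. Adding 1 TPM to each mean gave 0 in rescue against wild-type testes, with 5.837% of all genes lower. Directions that turned on centring were those of small ratios: 3 members in testes, 3 in eyes, 2 in heart, 1 in spleen, 1 in MEFs, 1 in brain and 2 in rescue against wild-type testes. Low mean normalized counts, from 165 to 262, limit the precision of Sdf2l1 in heart, eyes and brain, of Creld2 in brain and of Ddit3 in liver most.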

Other observations

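In wild-type tissues the ratio of the mean TPM of Herpud1 to that of Hspa5 ran from 0.0960 in MEFs to 1.49 in liver, the only tissue in which the mean TPM of Herpud1 exceeded that of the main ER chaperone. In Tug1-/- tissues it ran from 0.0980 in MEFs to 1.76 in liver. The Tug1-/- ratio was 1.46 times the wild-type ratio in prostate, 1.33 times in heart and 1.18 times in liver, and 0.998 times in spleen, where both genes differed by 1.28-fold between genotypes. As a share of all TPM, the 10 members together held 0.624% in wild-type and 0.796% in Tug1-/- prostate, 0.169% and 0.223% in liver, 0.225% and 0.278% in spleen, and 0.154% and 0.141% in brain.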
